A study of Mus with 4 samples.

Results

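The Hox genes encode homeodomain transcription factors that give the embryo's body axis and limbs their positional identity. In the mouse they lie in 4 clusters, HoxA to HoxD, and within a cluster all genes are transcribed in the same direction and are numbered by paralog group, with low numbers acting toward the head and high numbers toward the tail and the distal limb. In tissues where they are not used, the clusters are a textbook example of chromatin covered by Polycomb repressor complexes. TBX3 is a T-box transcription factor known mainly as a repressor, and in the liver it is made by the hepatocytes around the central vein. The data below show how much TBX3 ChIP signal these clusters carried. The members were all protein-coding genes of the RefSeq annotation of GRCm38 whose symbol is Hoxa, Hoxb, Hoxc or Hoxd followed by a number, which gave 39 of 21887 protein-coding genes on the main chromosomes: 11 in HoxA, 10 in HoxB, 9 in HoxC and 9 in HoxD.

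Chromatin came from primary mouse hepatocytes that all carried the transposon construct pT2-SVNeo-EF1-eGFP-P2A-Tbx3-HA, so that HA-tagged TBX3 was overexpressed from an EF1 promoter after transfection and drug selection, and no cells without it were analysed here. There were 2 libraries of DNA precipitated with an anti-HA antibody and 2 Input libraries of the same genotype, and the values used here come from 1 deposited track of ChIP against Input. Which of the libraries went into it is not given in the sources used here, no value has a replicate error, and no test between samples could be made. The animals' age and strain are not given in the labels. The track gives each base a score, the −log10 of the p-value that MACS2 assigns to the number of ChIP reads over that base given the level expected from Input. Whether Hox genes were expressed in these cells was not measured in this series.

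No Hox gene had a score of 5 at either end, which few genes had. The score of a gene was the top score in a window reaching 1 kb to each side of both its ends, because the annotation used gives no strand. By that measure 0 of 39 Hox genes reached a score of 5, against 3.60% of all protein-coding genes (789 of 21887). A score of at least 3 was reached by 5 of 39 Hox genes, or 12.8%, against 29.1% of all protein-coding genes (6360 of 21887). The median Hox gene scored 1.90, with quartiles of 1.63 and 2.44, and the median protein-coding gene scored 2.44, with quartiles of 1.84 and 3.02. Of the Hox genes, 26 (66.7%) lay below the median of all genes, where 49.5% of all genes lay. With each read pair counted once, the median was 1.45 for the Hox genes and 1.45 for all genes, so this difference in medians was lost on that coarser scale. For scale, the cell-cycle repressor genes E2f7 and E2f8 scored 22.79 and 15.53 in the same track.

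**Figure D1:**
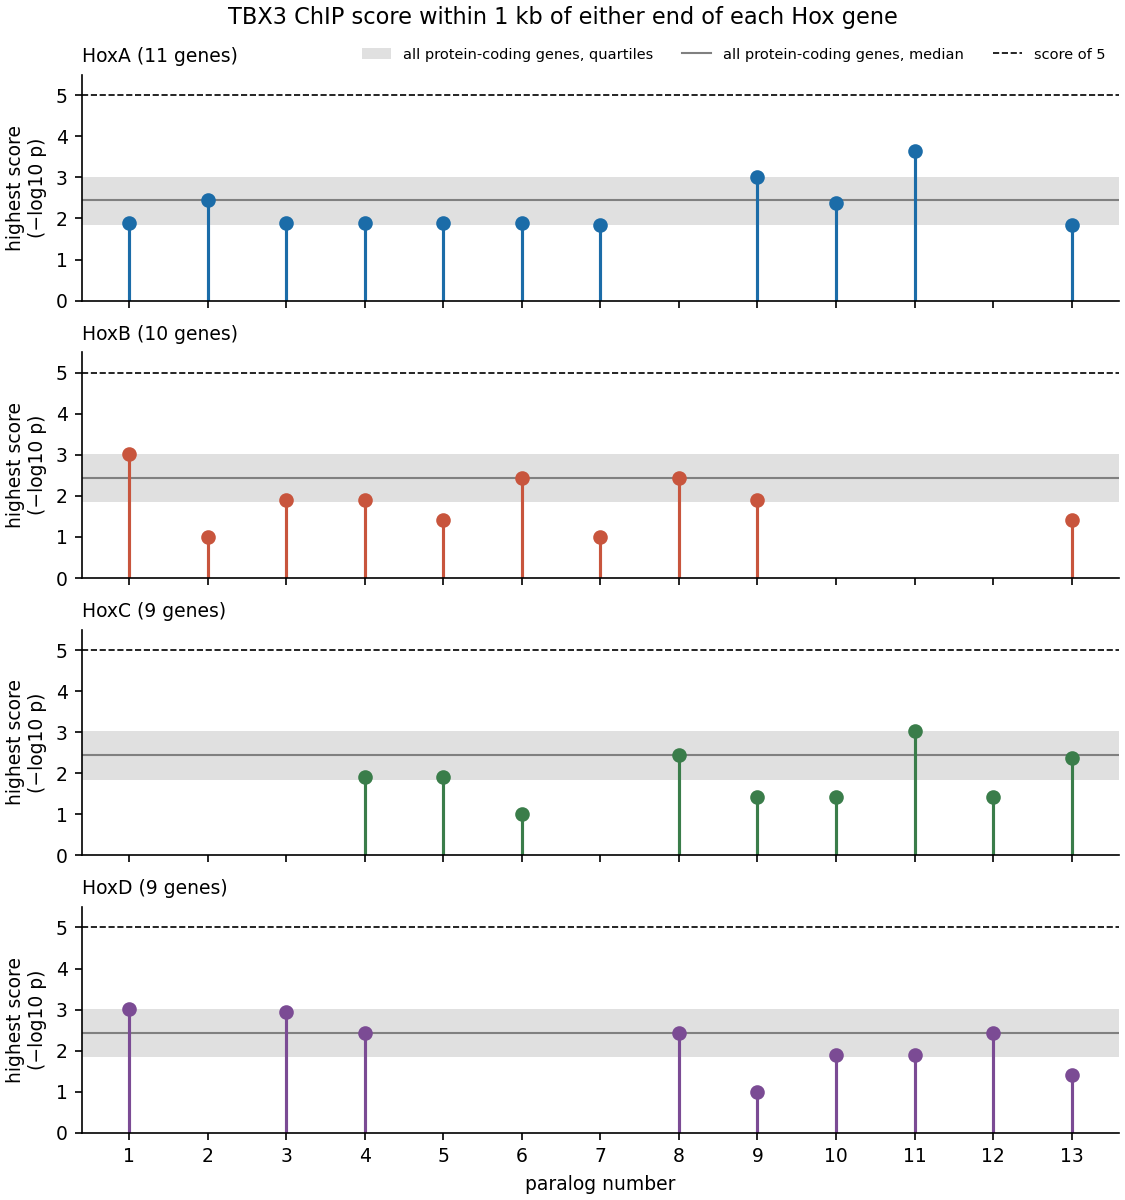
Highest score (−log10 p, vertical axis) within 1 kb of either gene end for each Hox gene, by paralog number (horizontal axis) and cluster (panels); the grey band and line are the quartiles and median of all 21887 protein-coding genes and the dashed line is a score of 5. All 39 points lie between 1.00 and 3.65, below the dashed line.

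The scores fall on a ladder, since a base covered by few reads can take only a few values. The reads behind each score, called the inferred pileup, were recovered from the track together with the expected level, which never falls below a genome-wide level of 2.435 reads. All 39 Hox summits rested on 4 to 9 reads. Of the genes, 4 had a summit of 4 reads, 6 had 5 reads, 14 had 6 reads, 9 had 7 reads, 5 had 8 reads and 1 had 9 reads. The median scores, 1.90 for the Hox genes and 2.44 for all genes, stand for neighbouring counts, 6 and 7 reads at the genome-wide level. With 8 reads, Hoxd3 scored 2.94 and 4 other members 3.02, so a score of 3 divides equal counts. Intervals on such counts are exact Poisson 95% intervals, which cover counting error only and are too narrow if both reads of a pair were counted. Taken as single reads, the 9 reads at the highest Hox summit have an interval of 4.12 to 17.1 reads. The 31 reads at E2f7 have one of 21.1 to 44.0. Both counts come from the highest-scoring base of their windows, a choice that the intervals do not allow for. With each read pair counted once, the highest Hox score was 2.09, shared by Hoxa11 and the 4 members at 3.02, and E2f7 had 11.83.

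Hoxa11, which patterns the forearm and the uterus, had the highest score of any member, 3.65, from 9 reads where 2.43 were expected. The gene lies on chromosome 6 from 52242105 to 52245810, and its summit, at position 52245838, was 28 bp outside the 5′ end, within the antisense transcript Hoxa11os. Of all protein-coding genes, 14.7% scored at least as high as Hoxa11. The 5′ end was taken from the order of the paralogs in each cluster, which is known, and not from the annotation. The mean pileup over its 5′ window was only 0.89 reads, so the summit was a narrow one, with 56 bp at a score of at least 3.

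The next 4 members each scored 3.02, from 8 reads (95% interval 3.45 to 15.8), a score that 29.0% of all genes reached. Hoxa9, a gene of the trunk that is also used in blood stem cells, had its summit 479 bp from its 5′ end (chromosome 6, gene at 52223097 to 52227370). Hoxb1, which specifies a segment of the hindbrain, had its summit inside the gene and 1529 bp from the 5′ end (chromosome 11, 96365746 to 96368254). Hoxc11, a gene of the hind limb and lumbosacral region, had its summit 535 bp from its 3′ end (chromosome 15, 102954526 to 102956701). Hoxd1 had its summit just beyond its 3′ end (chromosome 2, 74762980 to 74765142). Only Hoxa9 among these 4 thus had its highest score in the 5′ window, where Hoxb1, Hoxc11 and Hoxd1 reached 1.42, 1.90 and 1.42.

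Hoxd3, which shapes the first neck vertebrae, followed with 2.94, again at its 3′ end, where the 5′ window held a score of 0.64. The 7 genes at 2.44, with 7 reads each, were Hoxa2, which patterns the second branchial arch, Hoxb6, Hoxb8, Hoxc8, which is used in motor neurons of the forelimb level, Hoxd4, Hoxd8 and Hoxd12. A score of 2.44 is the median of all genes, and 50.5% of genes reached it. Hoxa10, a gene of the uterus and lumbar spine, and Hoxc13, a gene of hair and nails, had 2.37.

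At the low end, Hoxb2, Hoxb7, Hoxc6 and Hoxd9 scored 1.00, with 4 reads at the highest-scoring base (95% interval 1.09 to 10.2). Of all protein-coding genes, 97.2% scored at least as high. Hoxc6, a gene of the thoracic level, had the lowest mean pileup of the members over both windows together, 0.42 reads, and 1.90% of all genes were as low. Hoxb2, which acts with Hoxb1 in the hindbrain, had a mean pileup of 0.67 reads, and 3.33% of genes were as low. Another 6 genes scored 1.42, among them Hoxb13, a gene of the prostate and tail, Hoxd13, a gene of the digits, and the motor neuron genes Hoxc9 and Hoxc10. The remaining 14 genes, at 1.84 or 1.90, included Hoxa13, Hoxa5, used in the lung, Hoxb4, used in blood progenitors, and Hoxa3, used in the thymus and parathyroid.

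The 4 clusters overlapped in their members' scores. Scores ran from 1.84 to 3.65 in HoxA, from 1.00 to 3.02 in HoxB, from 1.00 to 3.02 in HoxC and from 1.00 to 3.02 in HoxD. The median was 1.90 in HoxA, HoxB and HoxC and 2.44 in HoxD. Members reaching a score of 3 numbered 2 in HoxA and 1 in each of the others. Along the axis, the 8 anterior genes (paralogs 1 to 3) had a median score of 2.17, the 15 central genes (paralogs 4 to 8) one of 1.90 and the 16 posterior genes (paralogs 9 to 13) one of 1.90. Of these, 2 anterior, 0 central and 3 posterior genes reached 3, a score that 29.1% of all genes reached. The ranges of these 3 sets overlapped, from 1.00 to 3.02, from 1.00 to 2.44 and from 1.00 to 3.65. Neighbouring genes are not independent: the 78 windows joined into 70 stretches, and Hoxc4 and Hoxc5 shared their summit, which left 38 distinct summits.

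Mean pileup gave a less coarse view of the same promoters. It ranged from 0.42 to 1.88 reads among the Hox genes, with a median of 1.24, and 34 of 39 lay below the median of all genes, 1.63 reads. The highest were Hoxc4, with 1.88 reads, and Hoxc8, with 1.85 reads. The protein-coding genes of the 4 chromosomes that carry Hox clusters had a higher median than the genome, 1.78 reads. The posterior genes had a median of 1.17 reads, with 16 of 16 below the median of all genes, the central genes 1.22 reads, with 12 of 15, and the anterior genes 1.47 reads, with 6 of 8. The expected level from Input differed less between Hox and other genes, with a median of 2.67 reads at Hox promoters and 2.70 at all promoters. The pileup divided by the expected level, averaged over each promoter, had a median of 0.489 for the Hox genes and 0.612 for all genes. Ratios below 1 are usual in this track. The expected level has a floor of 2.435 reads, above the median pileup of 1.63 reads at all promoters. The pileup has no floor, and Input below that of the expected level cannot be seen.

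The low pileup was most marked at the 5′ ends. The 5′ windows had a median of 0.97 reads, from 0.15 to 1.85, and the 3′ windows a median of 1.38 reads, from 0.30 to 2.75. The 5′ window was the lower of the pair in 27 of 39 genes. The lowest 5′ window was that of Hoxa13, a gene of the digits and genital tract, with 0.15 reads, and its 3′ window had 2.06. Hoxd3 had 0.52 and 2.47 reads, and Hoxd1 had 0.92 and 2.75. Hoxb8 went the other way, with 1.85 reads at its 5′ end and 0.60 at its 3′ end. Averaged over the 39 genes, pileup fell to 0.89 reads within 500 bp of the 5′ end from 1.40 reads at 2 to 5 kb from it, and the expected level was 2.54 and 2.74 reads. Around the 3′ end the values were 1.46 and 1.29 reads. All protein-coding genes, averaged over either end, had 1.70 reads within 500 bp and 1.75 reads at 2 to 5 kb. Since strand was known for the Hox genes only, 5′ ends of other genes were not compared. Base composition and mappability, which change how well a sequence is recovered in both ChIP and Input, were not measured here, and their part in these values was not tested.

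**Figure D2:**
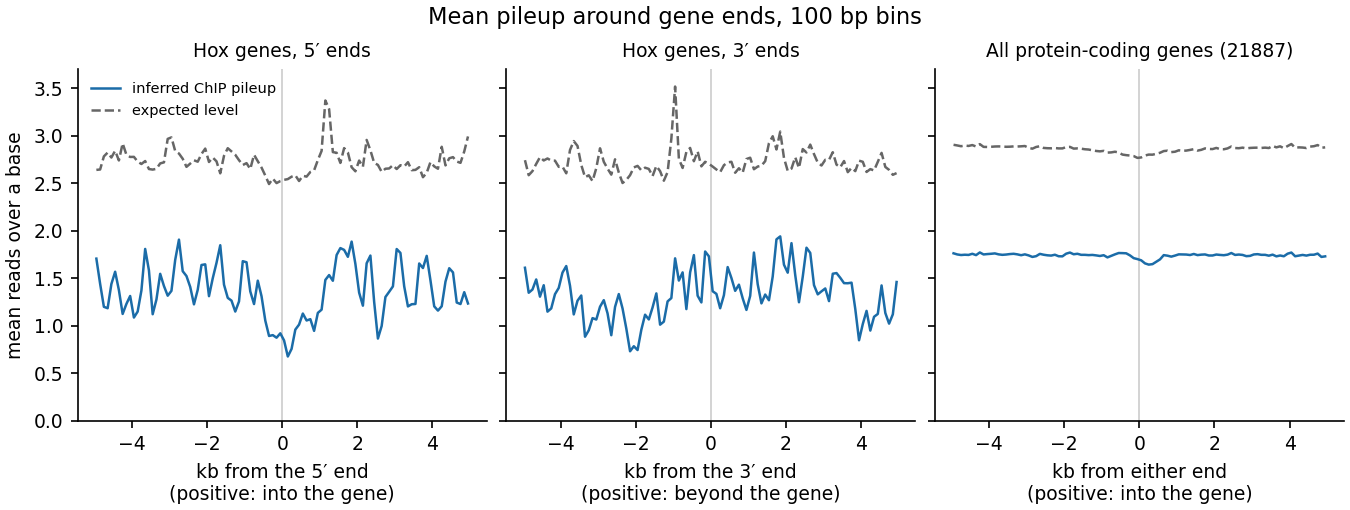
Mean inferred ChIP pileup (solid) and expected level (dashed), in reads over a base, in 100 bp bins within 5 kb of the 5′ ends and 3′ ends of the 39 Hox genes and of either end of all 21887 protein-coding genes. The Hox 5′ ends show a dip to 0.89 reads within 500 bp; the spike in the Hox expected level comes with the Hoxd1 windows, whose mean expected level of 3.32 reads was the highest of the members.

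The clusters as a whole, from the first to the last Hox gene, also carried few reads. HoxA spans 105514 bp of chromosome 6 (52155367 to 52260880), HoxB 173939 bp of chromosome 11 (96194316 to 96368254), HoxC 115726 bp of chromosome 15 (102921131 to 103036856) and HoxD 96918 bp of chromosome 2 (74668225 to 74765142). HoxA held 9.93 inferred reads per kb (95% interval 9.34 to 10.6), and its 500 kb flanks held 11.4 and 11.6. HoxB held 8.73 reads per kb (8.30 to 9.18), with 10.9 and 10.8 in its flanks. HoxC held 8.65 reads per kb (8.13 to 9.21), with 12.7 and 12.6 in its flanks. HoxD held 9.64 reads per kb (9.03 to 10.3), with 12.9 in either flank. All 4 clusters were thus below both of their 500 kb flanks by more than these counting intervals. Taken with 50 kb on either side, HoxA held 10.2 reads per kb (9.74 to 10.6) and HoxB 9.47 (9.11 to 9.84). These intervals overlap those of the clusters alone. HoxC with 50 kb on either side held 10.2 (9.75 to 10.6) and HoxD 11.1 (10.6 to 11.5), above the intervals of the clusters alone. Each longer stretch contains its cluster, so overlapping intervals do not place the added 50 kb at the cluster's level. The added sequence was not measured on its own.

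Pileup differed between chromosomes, from a median of 1.19 reads over the 100 kb tiles of chromosome 4 to 2.51 on chromosome 10, so each cluster was set against tiles of its own chromosome first. There, 0.478% of the 1465 tiles of chromosome 6 were as low as HoxA (1.49 reads, where the median tile had 1.83). For HoxB this share was 0.253% of 1188 tiles (1.31 against 1.81 reads) and for HoxC 0.297% of 1009 tiles (1.30 against 1.92 reads). For HoxD it was 1.12% of 1788 tiles (1.45 against 1.93 reads). Tiles that overlap a cluster were not left out of these shares. The 500 kb flanks of HoxA (1.71 and 1.73 reads) and HoxB (1.63 and 1.62 reads) were themselves below the median tile. Those of HoxC (1.91 and 1.89 reads) and HoxD (1.94 and 1.93 reads) were near it. Among the 25677 tiles of all chromosomes but Y, whose median was 1.75 reads, the shares were much larger: 19.8% were as low as HoxA, 8.98% as low as HoxB, 8.54% as low as HoxC and 16.5% as low as HoxD. The Input side moved with it. The share of bases whose expected level was at least that of 3 scaled Input reads was 31.3% in HoxA, 30.7% in HoxB, 33.0% in HoxC and 32.4% in HoxD, while the median tile had 38.97%, 39.4%, 42.1% and 42.9%. For that share, 7.10%, 3.03%, 8.72% and 4.81% of tiles were as low as the cluster. The part of the lower Input in the lower ChIP pileup was not tested. For the mean of pileup divided by expected level, 1.09% of tiles were as low as HoxA, 0.253% as low as HoxB, 0.396% as low as HoxC and 1.23% as low as HoxD.

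**Figure D3:**
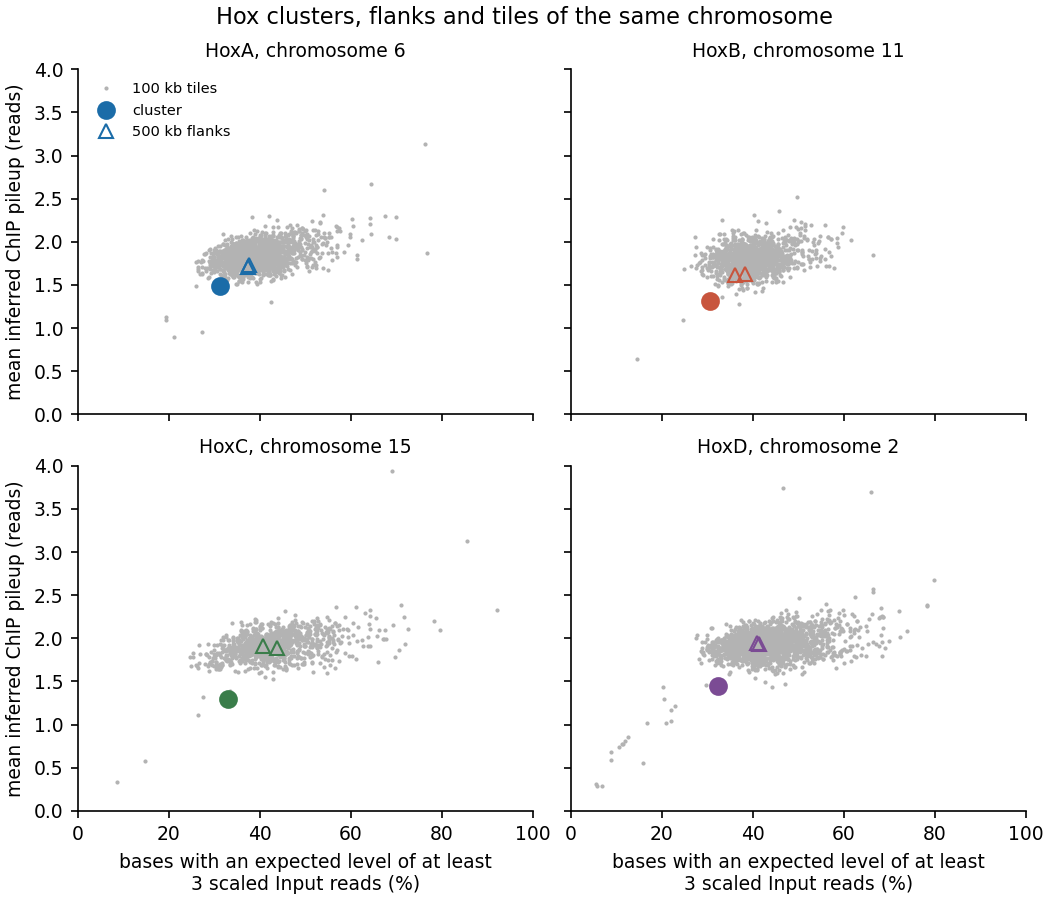
Mean inferred ChIP pileup (vertical axis, reads) against the percentage of bases whose expected level is at least that of 3 scaled Input reads (horizontal axis) for each cluster (filled circle), its 500 kb flanks (triangles) and the 100 kb tiles of the same chromosome (grey); 3 of 5450 tiles lie above the axis. Each circle sits below and to the left of its triangles.

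The mean score over the 4 clusters together was 0.283. By cluster it was 0.308 in HoxA, 0.268 in HoxB, 0.267 in HoxC and 0.300 in HoxD, and the median tile of the same chromosome had 0.373, 0.365, 0.386 and 0.389. Tiles as low as the cluster made up 1.77%, 0.253%, 0.396% and 1.51% of each chromosome's tiles. Pileup was lower within 1 kb of Hox gene ends than in the rest of the clusters, 1.23 against 1.43 reads. This held in each cluster, with 1.41 and 1.54 reads in HoxA, 1.18 and 1.34 in HoxB, 1.03 and 1.40 in HoxC and 1.27 and 1.54 in HoxD. The counting intervals per kb were apart in HoxC (6.03 to 7.86 and 8.7 to 10.0) and overlapped in HoxA, HoxB and HoxD. Bases at the level of 3 scaled Input reads were also fewer near gene ends in HoxB (21.8% against 32.9%) and HoxD (26.7% against 35.4%). In HoxC these shares were 29.7% and 34.3%, and in HoxA 31.6% and 31.1%.

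In HoxB, HoxC and HoxD the highest score inside the cluster lay over 1 kb from any end of a Hox gene. In HoxA it was the summit at Hoxa11. Most cluster bases, 350999 of 492097, lie that far from Hox gene ends. Bases with a score of at least 3 formed 26 short runs over all 4 clusters, 5 in HoxA, 10 in HoxB, 7 in HoxC and 4 in HoxD, the longest of 145 bp. They covered 0.153% of HoxA, 0.255% of HoxB, 0.295% of HoxC and 0.113% of HoxD, and between 0.383% and 0.434% of the tiles of those chromosomes. The single place where a score of 5 was reached was in HoxB, at position 96255102, in the long interval between Hoxb13 and Hoxb9. It scored 5.01 from 11 reads, only 9 bases reached 5, and it lay 16228 bp from Hoxb9 within the noncoding gene Gm53. A score of 5 somewhere in a tile was common on these chromosomes, in 38.3% to 46.0% of tiles. In HoxC the highest score was 4.89, inside Hoxc4 and 1874 bp from its nearer end. In HoxD it was 4.31, 5473 bp from Hoxd1 and inside the noncoding gene Haglr. A score of 4.31 was also reached in HoxC, 2136 bp beyond Hoxc10, and in HoxB, between Hoxb13 and Hoxb9.

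**Figure D4:**
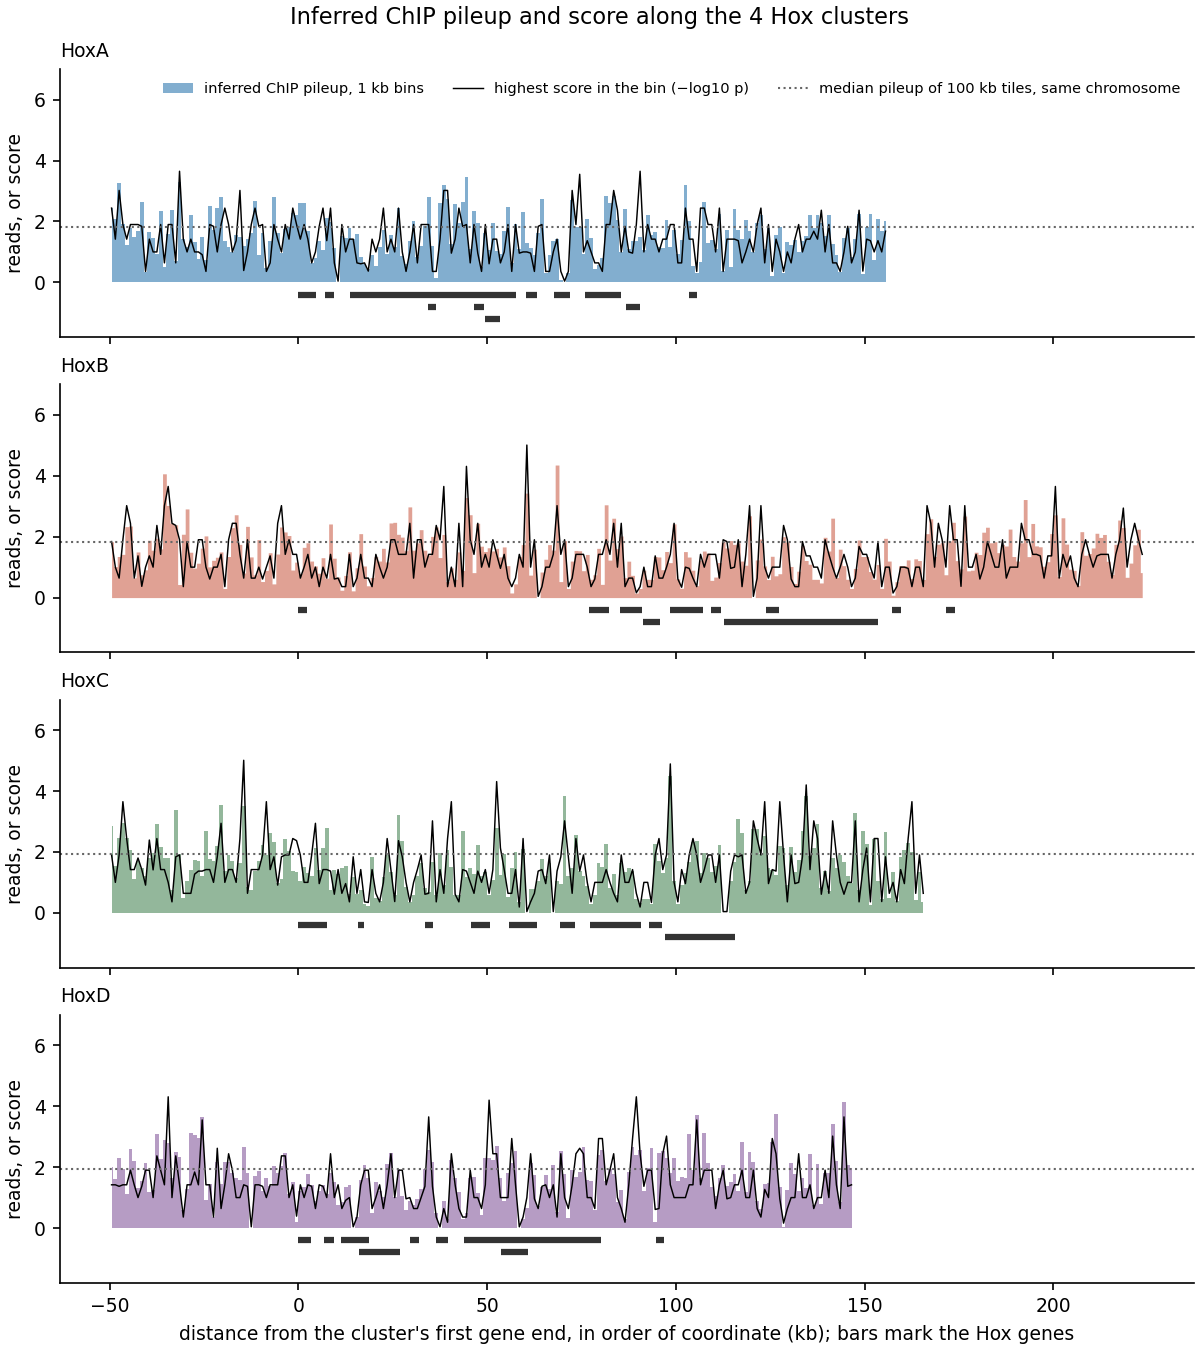
Mean inferred ChIP pileup in 1 kb bins (filled, reads) and highest score in each bin (line, −log10 p) along each cluster with 50 kb on either side, by distance from the cluster's first gene end; bars mark the Hox genes, stacked where they overlap, and the dotted line is the median pileup of the chromosome's 100 kb tiles. Peaks of the score inside the clusters stay at or below 5.01, and much of each cluster lies under the dotted line.

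No called region lay in any Hox cluster. A region was called where the score was at least 5 over at least 200 bp, with gaps of up to 30 bp joined, which gave 125 regions over the genome and 0 in the clusters. Regions were rare everywhere: 0.436% of 100 kb tiles (112 of 25677) held one. None in 4 clusters of 96918 to 173939 bp is thus near the background. The nearest region to HoxB was 609421 bp away, in Sp2, with a summit score of 8.98. The nearest to HoxD was 5287546 bp away, beside Dhrs9, with a score of 21.51. For HoxC and HoxA the nearest regions were 19748787 and 33190383 bp away, in Cyb5r3 and Pradc1. Relaxing the cutoff to a score of 3 gave 773 regions over the genome and again 0 in the clusters, where 2.77% of tiles (711 of 25677) held one.

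The clusters also hold 32 other annotated genes, none of them coding for a protein: 25 long noncoding RNAs, 6 microRNAs and 1 pseudogene. Of these, 0 reached a score of 5 at their ends, and 6 (18.8%) reached 3. A score of 5 was reached by 2.04% of all long noncoding RNA genes and 1.22% of all microRNA genes, so a count of 0 is near the background. The long noncoding RNAs had a median of 1.90, against 2.37 for the 12727 of the annotation, and 3 of 25 (12.0%) reached 3, against 25.3% of the annotation. The highest were Hoxa11os, which shares its summit with Hoxa11, and Gm38462 in HoxD, both at 3.65. Hotair, the noncoding RNA of the HoxC cluster, scored 2.44, and Hotairm1 in HoxA also 2.44. Among the microRNAs, which target Hox messages among others, Mir196a-2 scored 4.31 from 10 reads, Mir196b 3.55 and Mir10a 3.02, while Mir196a-1 had 1.90, Mir615 1.90 and Mir10b 1.42. A score of 3 was reached by 17.7% of the 1228 microRNA genes of the annotation. The Mir196a-2 summit is the same one that lies beyond Hoxc10. Evx1 and Evx2, the even-skipped homeobox genes next to HoxA and HoxD, scored 2.44 and 1.42.

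Low promoter scores were also found in other homeobox families. The other developmental homeobox and paired-box families, which include Dlx, Irx, Lhx, Nkx and Pax, 62 genes, had a median score of 1.90 and a median pileup of 1.22 reads. Of these, 1 reached a score of 5, the forebrain and limb gene Dlx2 with 5.01, and 13 (21.0%) reached 3, where 3.60% and 29.1% of all protein-coding genes did. Nkx1-1 was the lowest, with 0.36. The 9 Hox cofactors of the Pbx, Meis and Pknox families, which bind DNA beside Hox proteins, had a median of 1.90, from 0.64 at Pbx2 to 3.02 at Meis2, and 0 reached 5. The 6 ParaHox genes, the sister family that includes Pdx1 and Cdx2, had a median of 2.17, from 1.90 at Cdx4, Gsx2 and Pdx1 to 3.02 at Gsx1.

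The 18 Polycomb and trithorax regulators, which hold Hox clusters silent or active, had a median of 2.44, the same as all genes, and a median pileup of 1.68 reads. Eed, a core subunit of Polycomb repressive complex 2, was the single one to reach 5, with 5.01, and 6 (33.3%) reached 3, both near the shares of all genes, 3.60% and 29.1%. Suz12 and Kdm6b were the lowest, with 1.42. The 22 hepatocyte genes, such as albumin and the transcription factor gene Hnf4a, also had a median of 2.44, with a median pileup of 1.56 reads. Of these, 0 reached 5 and 4 (18.2%) reached 3, against 29.1% of all genes, with Hnf4a at 3.02 among the highest and Ahsg and Trf the lowest at 1.00. With 3.60% of all protein-coding genes at 5, a count of 0 in lists of this size, the 39 Hox genes included, is near the background.

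**Figure D5:**
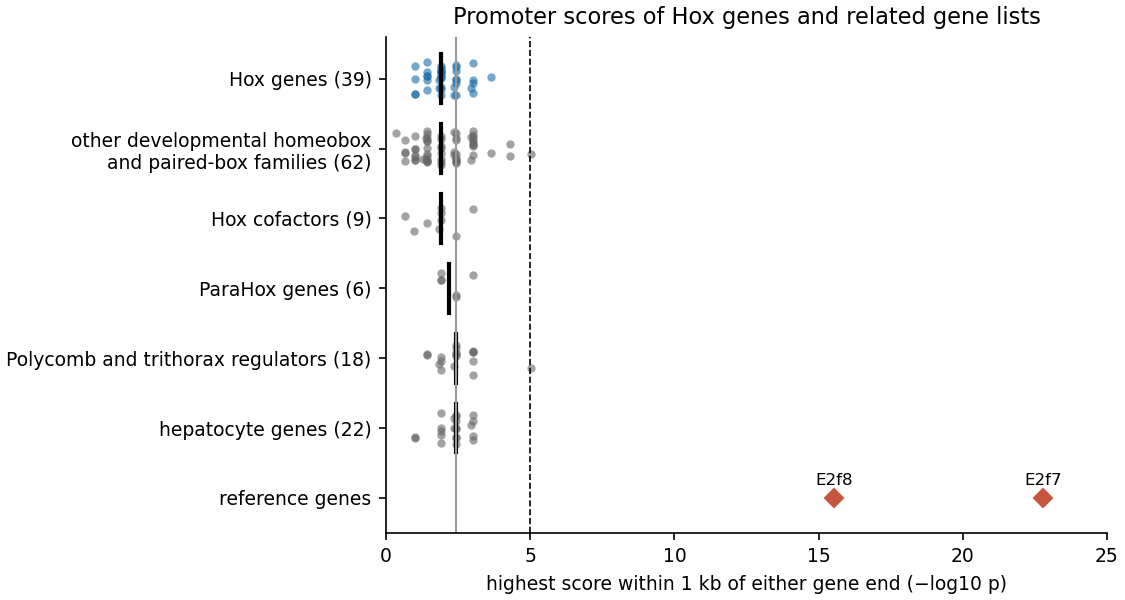
Highest score within 1 kb of either gene end (horizontal axis, −log10 p) for each gene of 6 lists, with a black bar at each list's median, E2f7 and E2f8 for scale, the median of all protein-coding genes (grey line) and a score of 5 (dashed line); points are spread vertically to be seen. The Hox genes span 1.00 to 3.65, within the range of the other homeobox families, 0.36 to 5.01.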

How the data were processed

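Libraries were 2 anti-HA ChIP and 2 Input libraries of primary mouse hepatocytes, sequenced on a NextSeq system. The authors used Bowtie 2 for mapping to the mm10 build, SAMtools for sorting and MACS2 for scores (versions are not given in the sources used here). The deposited file is 1 track of −log10 p-values of ChIP against Input (110667813 intervals over 65 contigs). Which libraries went into it, pooled or not, is not given in the sources used here, and it has no column per library, so depth per library is unknown.

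Each score was traced back to a ChIP pileup and an expected level under a Poisson distribution, choosing the path with the fewest changes along a chromosome. This took a fragment length of 150 bp, 0.835 as the Input scale and a genome-wide level of 2.435 reads, matched 99.946% of bases and gave 30140319 ChIP reads on the 21 main chromosomes. Whether both reads of a pair were counted is not given in the sources used here. The tracing, the windows and the calling of regions were tested on simulated data. The simulation was given its fragment length, Input scale and genome-wide level, so the estimation of these from the track was not tested. All steps were run with Python 3.11.15, numpy 2.4.6 and scipy 1.17.1.

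Genes were those of the RefSeq table of GRCm38.p6, which holds no strand and no sequence, so no sequence is shown and the planned search for a T-box motif was not made. RefSeq spans can include distant first exons (Hoxa3, Hoxb3 and Hoxd3), so an end need not be the main start site. Other long spans are those of Hoxc4 (18760 bp) and Hoxc6 (13657 bp), where the median Hox gene has 3737 bp. These 2 genes had the highest and the lowest mean pileup of the members. All of the lists' 9, 6, 18 and 22 genes were found. Genes were named by rule: the 10 highest and 5 lowest members, the highest of each cluster and paralog set, and the highest and lowest of each list; other members were named after their values were seen. Tiles with a mean pileup of 0.1 reads or less, and those of chromosome Y, were left out. No test was made, as there is 1 track. The members, lists and settings were chosen with earlier results of these data known.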

Additional observations from a re-analysis of the deposited data

How the results depend on the processing

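No paired analysis was possible because there is 1 track with no column per library, and leaving out a library was not possible for the same reason. In all settings run, 0 of 39 Hox genes reached a score of 5, against 2.56% of all genes with 500 bp windows, 5.19% with 2 kb windows and 0.457% with each read pair counted once, and the clusters held 0 called regions at cutoffs of 3, 5 and 10 (773, 125 and 29 over the genome), at a minimum length of 100 bp (640), with gaps of 100 bp joined (170), or with 50 kb added on either side, counts too low over the genome for a 0 to set the clusters apart. The number of Hox genes at a score of at least 3 was 5. It was 4 with 500 bp windows (17.7% of all genes), 10 with 2 kb windows (45.4%) and 0 with each pair counted once (2.29%). With the 5′ end alone it was 2. This setting searches less sequence per gene and has no share of all genes beside it, as their strand was not known. It was added after the data were examined because the planned one, with strand from the annotation, could not be run. The median Hox score of 1.90 became 1.42 with 500 bp windows (all genes 1.90), 2.44 with 2 kb windows (2.62), 1.45 with each pair counted once (1.45) and 1.42 at the 5′ end, and the median of the window's average score was 0.278 (0.333). The highest Hox score of 3.65 became 4.89, at Hoxc4, with 2 kb windows and 2.09 with each pair counted once. The mean score over the clusters of 0.283 was 0.310 with 50 kb added on either side, and pileup divided by expected level, another quantity, averaged 0.512. A window's highest score rises with its length by construction. With 4 to 9 reads at each summit, weak binding could not be told from background at this depth.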
